A study of Mus musculus with 18 samples.

Results

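The nuclear genes for the subunits of respiratory complexes II, III, IV and V were followed in murine osteosarcoma cells that lose the arginine methyltransferase gene Prmt1. Members were the rows of the deposited gene table whose symbol names a succinate dehydrogenase subunit (Sdha to Sdhd), begins with Uqcr, is Cyc1, begins with Cox and a digit from 4 to 8, or begins with Atp5. This gave 47 of the 19862 genes in the table: 4 of complex II, 9 of complex III, 17 of complex IV and 17 of complex V. Of these, 45 had reads in at least 3 of the 18 libraries and were tested among 17515 genes, and 41 had a mean of at least 1 count per 1000000 reads (CPM) over all libraries. The table held 0 rows for the subunits encoded by mitochondrial DNA, so only nuclear messages are described. Atp5sl and Atp5s are caught by their old symbols: RefSeq now calls them Dmac2, an assembly factor of complex I, and Dmac2l. Cox7a2l is a factor of respiratory supercomplexes rather than a constant subunit of the enzyme.

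All libraries came from mOS cells, mouse osteosarcoma lines taken from tumours of mice with conditional knockout of p53 and Rb (labelled strain Mix background, postnatal day 299). The cells carried floxed Prmt1 alleles (Prmt1 f/f) and a stably expressed CreER, a Cre recombinase that tamoxifen activates. Control cells, whose genotype label reads wild type although they carry the same floxed alleles and CreER, received the vehicle ETOH. Knockout cells, labelled Prmt1-/-, received Tamoxifen (4OHT). Cytoplasmic lysate made with cycloheximide, which holds ribosomes on messages, was kept as Total RNA or spun through a sucrose gradient. Gradient fractions were pooled as Light, with under 3 ribosomes a message, or as Heavy, with over 3, giving n = 3 libraries in each of the 6 groups. The labels do not say whether the 3 libraries of a group are separate cultures, so a p-value here reflects the spread of these samples alone, which may be technical. Effects of the drug and of Cre cannot be told apart from those of the deletion.

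Complex II, succinate dehydrogenase, takes electrons from succinate in the citric acid cycle and passes them to ubiquinone. Complex III hands them to cytochrome c, complex IV (cytochrome c oxidase) hands them to oxygen, and complex V (ATP synthase) makes ATP from the proton gradient that complexes III and IV help build. Complex II is built wholly from nuclear genes, whereas the other three also hold subunits made inside the mitochondrion, and many of the nuclear subunits are very small proteins.

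The smallest members show how short a message this group can hold. The 3 whole reading frames below are printed because they lay among the members most depleted from the Heavy fraction. They are read from the GENCODE vM21 annotation of GRCm38, in the direction of the transcript, with start and stop codons in capitals. Atp5e, the epsilon subunit of the ATP synthase, lies at chr2:174461075-174464101 on the minus strand and its frame has 159 bases and 52 codons before the stop. Uqcr11, a small subunit of complex III, lies at chr10:80402997-80406821 on the minus strand with 171 bases and 56 codons. Cox7c, a small subunit of complex IV, lies at chr13:86044798-86046795 on the minus strand with 192 bases and 63 codons.
Atp5e: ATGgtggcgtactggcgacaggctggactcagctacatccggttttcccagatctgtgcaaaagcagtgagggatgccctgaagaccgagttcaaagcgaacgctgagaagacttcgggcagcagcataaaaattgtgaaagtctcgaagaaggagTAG
Uqcr11: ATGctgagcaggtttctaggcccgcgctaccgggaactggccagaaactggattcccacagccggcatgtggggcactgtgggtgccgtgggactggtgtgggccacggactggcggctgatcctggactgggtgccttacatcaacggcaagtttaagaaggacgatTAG
Cox7c: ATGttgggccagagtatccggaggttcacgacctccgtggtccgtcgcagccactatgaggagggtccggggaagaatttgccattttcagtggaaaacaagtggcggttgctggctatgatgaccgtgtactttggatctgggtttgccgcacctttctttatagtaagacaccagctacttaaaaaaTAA

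Cox6a2, the heart and skeletal muscle form of subunit VIa of complex IV, is printed because it was the member with the largest ratio of mean CPM between knockout and control Total RNA. It lies at chr7:128205435-128206366 on the minus strand, and its frame has 294 bases and 97 codons before the stop.
Cox6a2: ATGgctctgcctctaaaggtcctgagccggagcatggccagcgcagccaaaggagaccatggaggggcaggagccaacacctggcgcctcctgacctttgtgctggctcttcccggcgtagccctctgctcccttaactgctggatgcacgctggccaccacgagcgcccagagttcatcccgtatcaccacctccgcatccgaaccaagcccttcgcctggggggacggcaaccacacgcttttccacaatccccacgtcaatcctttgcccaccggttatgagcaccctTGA

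Atp5g1 (chr11:96072793-96075694), Atp5g2 (chr15:102662868-102671047) and Atp5g3 (chr2:73908447-73912464), all on the minus strand, encode the proton-carrying c subunit of the ATP synthase behind different mitochondrial import sequences. Their last 234 bases before the stop codon (78 codons) are printed because reads from such close copies can be hard to assign, and because their Heavy to Light differences are set side by side below. Capitals mark every base that differs in at least 1 of the 3 genes.
Atp5g1: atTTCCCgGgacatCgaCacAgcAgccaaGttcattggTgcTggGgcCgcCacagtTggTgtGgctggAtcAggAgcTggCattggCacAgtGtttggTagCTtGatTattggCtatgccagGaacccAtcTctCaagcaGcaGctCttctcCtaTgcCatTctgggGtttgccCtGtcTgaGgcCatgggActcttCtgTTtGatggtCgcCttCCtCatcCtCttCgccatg
Atp5g2: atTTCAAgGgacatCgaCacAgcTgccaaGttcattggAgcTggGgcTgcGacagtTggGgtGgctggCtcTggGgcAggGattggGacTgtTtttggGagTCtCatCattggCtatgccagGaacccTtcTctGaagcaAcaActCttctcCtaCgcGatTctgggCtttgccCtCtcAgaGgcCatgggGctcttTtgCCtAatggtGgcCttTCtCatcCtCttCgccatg
Atp5g3: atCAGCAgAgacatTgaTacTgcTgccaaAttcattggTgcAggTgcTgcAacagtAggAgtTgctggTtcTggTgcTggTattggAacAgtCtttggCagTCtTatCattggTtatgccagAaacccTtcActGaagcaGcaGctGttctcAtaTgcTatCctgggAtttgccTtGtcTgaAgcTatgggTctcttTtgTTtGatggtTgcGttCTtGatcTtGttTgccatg
Of the 234 bases, 63 differed in at least 1 gene and 55 of those lay at the third base of a codon. Atp5g1 and Atp5g2 were identical at 84.6% of these bases, Atp5g1 and Atp5g3 at 78.6%, and Atp5g2 and Atp5g3 at 77.4%. The frames differ more before the shared end, where they hold 58, 68 and 63 codons. Atp5g3 shared 0 of its 50-base words with any other gene. The transcript of Atp5g1 shared 496 of its 4666 words (10.6%) with other genes, 335 of them with Gm10039. The reading frame of Atp5g2 shared such words only with Gm10231 and Gm10175, not with Atp5g1 or Atp5g3.

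The libraries held 32.3 to 57.9 M reads (M for 1000000). Prmt1 itself stood at 256, 277 and 285 CPM in the Total control libraries 1 to 3 and at 147, 176 and 173 CPM in the Total knockout libraries. It stood at 412, 378 and 370.1 CPM in Heavy control and 64.4, 121 and 145 CPM in Heavy knockout libraries, and at 255, 243 and 218 CPM in Light control and 166, 229 and 235 CPM in Light knockout libraries. The limma log2 difference was -0.72 in Total (adjusted p = 0.020), -1.88 in Heavy (adjusted p = 7.9e-06) and -0.20 in Light (adjusted p = 0.51). Thus Prmt1 reads remained in every knockout library, and the sources used here do not name the exons that Cre removes. Of 9 osteoblast lineage markers, 7 had a mean of at least 1 CPM, and their summed level was 2330 to 2803 CPM in Light control, 4560 to 7493 in Light knockout, 4124 to 5580 in Heavy control and 6436 to 13181 CPM in Heavy knockout libraries. The Total libraries held 4330 to 6125 CPM of these markers in control and 6028 to 7856 CPM in knockout cells, and their part in the results below was not tested. Most of that sum was Col1a1, Col1a2 and Sparc. The lineage factors Runx2 and Sp7 were lower in knockout cells, with means of 77.6 and 47.5 CPM (Runx2) and 5.46 and 1.47 CPM (Sp7) in Total control and knockout RNA, and both means were also lower in Light and Heavy RNA. Alpl and Spp1 of the same list went the other way. Their Total control and knockout means were 9.21 and 27.9 CPM (Alpl) and 22.6 and 39.8 CPM (Spp1), and both were also higher in Light and Heavy knockout RNA. Summed markers of other cell types were low but moved with genotype. In Total RNA they went from at most 5.16 CPM in control to at least 12.0 CPM in knockout libraries for macrophages, from at most 0.76 to at least 3.33 CPM for endothelium, and from at most 1.28 to at least 7.02 CPM for epithelium. Germ cell markers went from at least 2.69 to at most 1.00 CPM. Most of each sum came from few genes. Total control and knockout means were 3.59 and 8.84 CPM for Csf1r and 1.09 and 3.65 CPM for Cd68 (macrophage). They were 0.43 and 2.66 CPM for Flt1 (endothelium), 0.57 and 6.29 for Krt14 (epithelium) and 2.78 and 0.88 for Sycp3 (germ cell). Ptprc and Epcam had Total knockout means of 0.024 and 0.056 CPM. In every library these 4 sums stayed at or below 17.8 CPM, and their part in the results was not tested.

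All the ubiquitous subunits were present in every library, and the tissue-restricted paralogs of complex IV were nearly absent. Over all 18 libraries Cox4i2, the lung form of subunit IV, had 8 reads, and Cox6b2, the testis form of subunit VIb, had 6 reads. Cox7a1, the muscle form of subunit VIIa, had 41 reads, between 0 and 6 in a library. Cox7b2 and Cox8b had 2 reads each and were not tested, and the gene table had no row under the symbol Cox8c. The ubiquitous paralogs Cox4i1, Cox6a1, Cox6b1, Cox7a2 and Cox8a were all at a mean of at least 1 CPM. Cox6a2, with 551 reads in 17 libraries, was the exception among the restricted forms.

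In Total RNA few of these genes differed between knockout and control cells. Sdha and Cox6a2 rose and 0 of the 45 tested members fell at a limma adjusted p under 0.05, where 26.4% of all tested genes were called, 16.1% higher and 10.3% lower. Values are differences of mean log2(CPM + 1), a scale that understates changes of genes near or below 1 CPM. The median difference was 0.01 over the 45 members and 0.01 over all tested genes. At an unadjusted p under 0.05 limma had 5 members higher and 0 lower, beside 21.9% and 15.2% of all tested genes.

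Sdha encodes the flavoprotein subunit of complex II, which holds the succinate-oxidising site. It has 1995 coding bases and lies at chr13:74322255-74350240 on the minus strand. Its Total level was 108, 112 and 113 CPM in control and 183, 173 and 166 CPM in knockout libraries, so every knockout library lay above every control library. The ratio of mean CPM was 1.57 and the log2 difference 0.64 ± 0.16 (SE, n = 3 a group, limma adjusted p = 0.0072). The partners of Sdha in the same complex did not pass the test in Total RNA. Sdhb, the iron-sulfur subunit, stood at 143, 153 and 149 CPM in control and 131, 131 and 137 CPM in knockout libraries. Its groups did not overlap, whereas those of both membrane anchors did. Sdhc stood at 166, 173 and 170.5 CPM in control and 186, 172 and 169 CPM in knockout libraries. Sdhd stood at 159, 167 and 159 CPM in control and 138, 165 and 152 CPM in knockout libraries.

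Cox6a2 was read 2, 5 and 3 times in the Total control libraries and 89, 39 and 59 times in the Total knockout libraries. These reads amount to 0.0532, 0.0959 and 0.0916 CPM in control and 2.61, 0.937 and 1.44 CPM in knockout cells. The ratio of mean CPM was 20.7, and the log2 difference of 1.25 ± 0.17 (limma adjusted p = 5.9e-05) is smaller because 1 CPM is added to each value. It rose in every fraction: in Light from 14, 5 and 4 reads to 119, 66 and 94 (log2 1.39, adjusted p = 1.4e-05 with limma), and in Heavy from 0, 1 and 1 reads to 21, 5 and 24 (log2 0.50, adjusted p = 0.039 with limma). Cox6a2 stayed below 3 CPM in every library. Its ubiquitous counterpart Cox6a1 did not pass the test in Total RNA and stood at 291, 337 and 299 CPM in Total control and 371, 326 and 329 CPM in Total knockout libraries. Of 5 muscle markers only Tnnt2 reached a mean of 1 CPM. Their summed level was 9.69 to 15.0 CPM in Total control and 12.5 to 27.3 CPM in Total knockout libraries, and Ckm, Myh1, Myh6 and Actn2 each stayed below a mean of 0.1 CPM. Cox6a2 shares 70 exonic bases with Itgad on the other strand, and the sources used here do not state the strand setting of the counting. Itgad itself stayed at or below 0.117 CPM in every library.

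No member of complexes III and V passed the test in Total RNA with all libraries, although knockout and control groups did not overlap for some of them. Uqcrc1, a core subunit of complex III, stood at 214, 249.7 and 270.0 CPM in control and 266, 303 and 330.0 CPM in knockout libraries (log2 0.29, limma adjusted p = 0.11). Uqcrc2, the other core subunit, stood at 69.9, 70.9 and 69.0 CPM in control and 90.1, 83.6 and 84.4 CPM in knockout libraries (log2 0.29, limma adjusted p = 0.069). Atp5g3 stood at 662, 644 and 648 CPM in control and 479, 505 and 502 CPM in knockout libraries (log2 -0.39, limma adjusted p = 0.17). The groups of Uqcrc2 and Atp5g3 did not overlap, although neither passed the test. Without the Heavy knockout library 1, which enters the shared estimate of spread, Atp5g3 passed it (log2 -0.39, limma adjusted p = 0.00095). Knockout libraries lay wholly above control libraries for 7 members and wholly below for 11, shares of 45 to be read beside 24.4% and 20.2% of all tested genes.

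In the Light fraction more members were called, and in opposite directions by size. Of the 45 members 7 rose and 13 fell, where 26.8% of all tested genes rose and 12.7% fell (39.5% in all). The median difference was -0.36 for the members and 0.05 for all tested genes. By complex, 1 rose and 0 fell in complex II, 2 rose and 2 fell in complex III, 1 rose and 5 fell in complex IV, and 3 rose and 6 fell in complex V. The rises counted for complex V include Atp5sl, which is there by its old symbol only. The members that rose included 5 of the 6 with over 900 coding bases, and all 13 that fell had at most 600.

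Sdha had the largest rise after Cox6a2. It stood at 53.0, 45.7 and 47.2 CPM in Light control and 135, 114 and 126 CPM in Light knockout libraries, a ratio of 2.57 (log2 1.34 ± 0.16, limma adjusted p = 8.8e-06). Uqcrc1 (chr9:108936648-108949641, plus strand) stood at 163, 144 and 122 CPM in Light control and 283, 254 and 300.3 CPM in Light knockout libraries (log2 0.97 ± 0.13, limma adjusted p = 2.2e-05). Uqcrc2 (chr7:120635189-120659523, plus strand) went from 31.6, 30.7 and 32.6 CPM to 60.1, 47.8 and 54.2 CPM (log2 0.75 ± 0.11, limma adjusted p = 8.2e-05). In all 3 genes the lowest knockout library was well above the highest control library. Uqcrc2 shares 504 exonic bases with Pdzd9 on the other strand.

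The catalytic head of the ATP synthase moved in the same way. Atp5b, the beta subunit that carries the catalytic sites (chr10:128083307-128090388, plus strand), stood at 653, 598 and 582 CPM in Light control and 1192, 974 and 989 CPM in Light knockout libraries. Its ratio of mean CPM was 1.72 (log2 0.78 ± 0.12, limma adjusted p = 6.7e-05). Atp5a1, the alpha subunit of the same head, stood at 395, 334 and 347 CPM in control and 757, 604 and 657 CPM in knockout libraries (log2 0.90 ± 0.15, limma adjusted p = 0.00015). Atp5sl also rose, from 10.4, 11.2 and 10.2 CPM to 15.2, 15.0 and 12.7 CPM (log2 0.40, limma adjusted p = 0.032). That call was lost under quantile normalization (log2 0.15, limma adjusted p = 0.49) and under median-of-ratios scaling (log2 0.19, limma adjusted p = 0.32).

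In Light RNA 2 of the 9 members of complex III and 5 of the 15 tested members of complex IV fell. Cox7c stood at 311, 404 and 379 CPM in control and 168, 229.9 and 199 CPM in knockout libraries, a ratio of 0.545 (log2 -0.88 ± 0.16, limma adjusted p = 0.00046). Uqcrh, the hinge protein of complex III, stood at 346, 382 and 343 CPM in control and 168, 233 and 218 CPM in knockout libraries (log2 -0.80 ± 0.20, limma adjusted p = 0.0042). Uqcrb, another small subunit of complex III, went from 278, 284 and 345 CPM to 198, 189 and 157 CPM (log2 -0.73, limma adjusted p = 0.0090). In each of these genes every knockout library lay below every control library. In complex IV Cox6b1 (log2 -0.78), Cox7b (-0.74), Cox8a (-0.60) and Cox6a1 (-0.55) also fell, with limma adjusted p from 0.0045 to 0.046. Cox4i1, the subunit IV used in most tissues, stood at 1251, 1195 and 1122 CPM in Light control and 964, 1166 and 881 CPM in Light knockout libraries and did not pass the test.

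All 3 genes of the c subunit fell in Light RNA. Atp5g1 stood at 535, 535 and 493 CPM in control and 263, 344 and 286 CPM in knockout libraries (log2 -0.81 ± 0.22, limma adjusted p = 0.0088). Atp5g3 stood at 1121, 1064 and 1147 CPM in control and 696, 778 and 648 CPM in knockout libraries (log2 -0.65, limma adjusted p = 0.018). Atp5g2 stood at 717, 661 and 673 CPM in control and 485, 513 and 448 CPM in knockout libraries (log2 -0.51, limma adjusted p = 0.029). The other members of complex V that fell were Atp5k (log2 -0.79), Atp5j2 (-0.70) and Atp5d (-0.47), accessory and central stalk subunits, with limma adjusted p of 0.0053, 0.0047 and 0.037.

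Cyc1, the cytochrome c1 of complex III, is an exception among the long members: it stood at 412, 371 and 361 CPM in Light control and 379.8, 395 and 332 CPM in Light knockout libraries (log2 -0.05, limma adjusted p = 0.82). The 3 smaller subunits of complex II likewise did not pass the test. Sdhb differed by log2 -0.05, Sdhc by -0.03 and Sdhd by -0.25 (limma adjusted p = 0.27 for Sdhd).

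The split by size was counted over 3 classes of coding length, chosen after the values had been seen. Of the 6 members over 900 bases (Sdha, Cyc1, Uqcrc1, Uqcrc2, Atp5b and Atp5a1), 5 rose in Light RNA and 0 fell, with a median of 0.84. Among all 8002 genes of that length and at least 1 CPM, 40.6% rose and 9.85% fell, with a median of 0.28. Of the 28 members up to 600 bases with at least 1 CPM, 0 rose and 13 fell, with a median of -0.50, beside 10.8% higher and 43.9% lower and a median of -0.40 over all 1485 genes of that length. Of the 7 members over 600 and up to 900 bases 1 rose and 0 fell, with a median of 0.078, beside 293 higher and 362 lower and a median of -0.10 among all 1545 genes of that length. The short members fell at about the share of all short genes (46.4% against 43.9%). Removing the trend of coding length from every library left 8 members higher and 3 lower, beside 23.4% and 24.5% of the genes tested that way. Knockout libraries lay wholly above control libraries for 7 members and wholly below for 23, beside 33.3% and 17.3% of all tested genes.

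**Figure D1:**
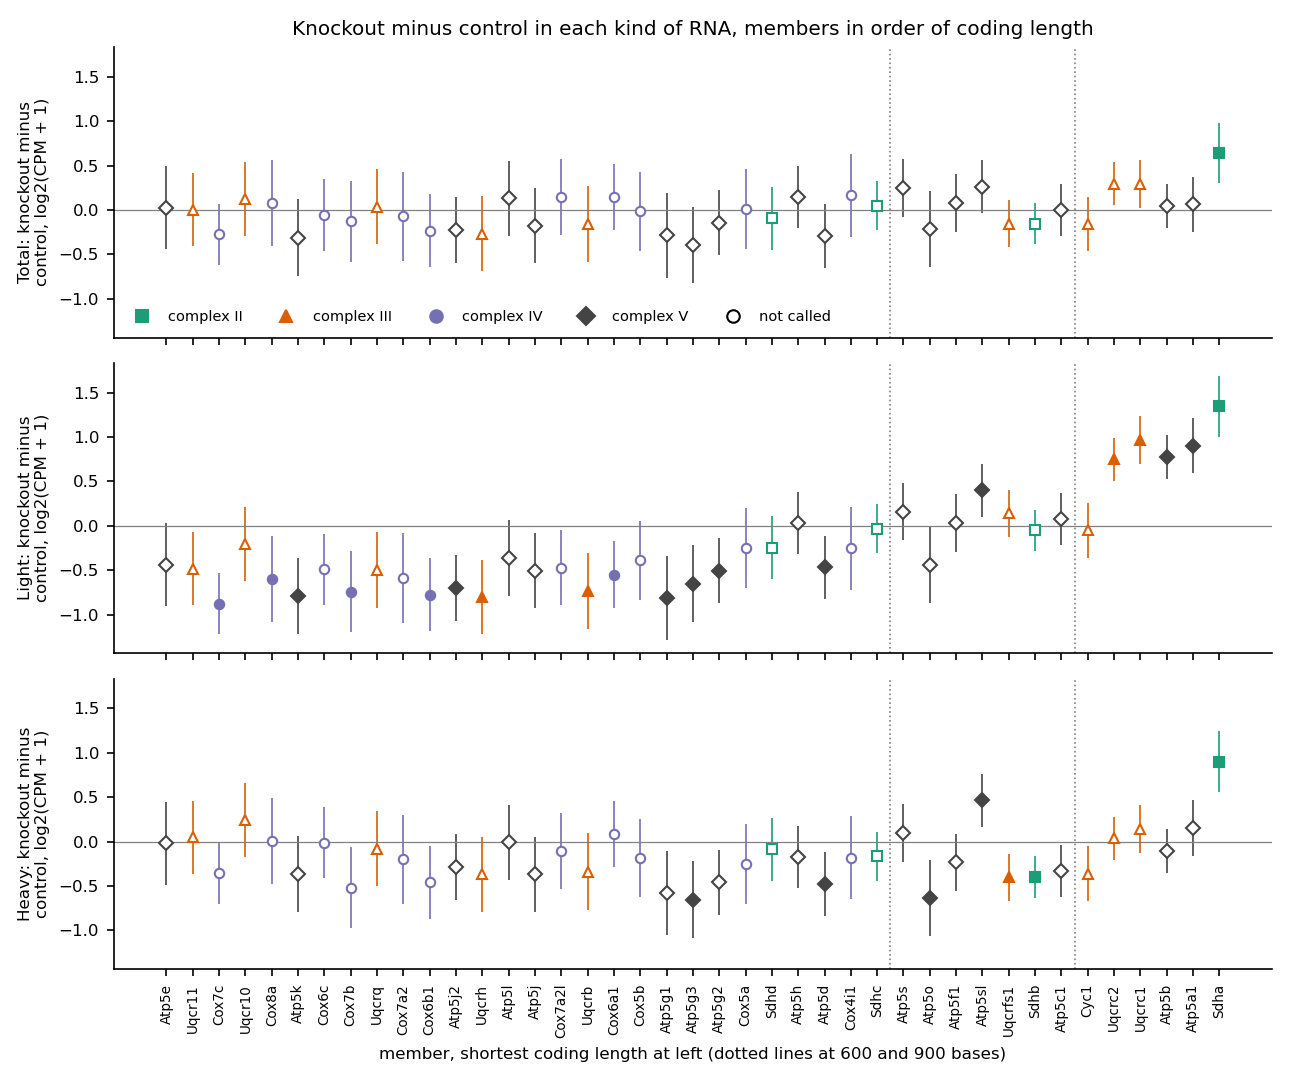
Knockout minus control difference of mean log2(CPM + 1) for the 41 members with at least 1 CPM in Total, Light and Heavy RNA. Members are ordered by coding length, with bars for the 95% confidence interval and filled points for a limma adjusted p under 0.05. In Light RNA 5 of the 6 longest members lie above 0 and the short members lie mostly below it, whereas Total RNA has 1 filled point. Cox6a2 is below that level and is not drawn.

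The sum over the members of a class shows the same split. The 34 members up to 600 bases (including those of low level) summed to 11578, 12519.8 and 11702 CPM in Light control and 7973, 9566 and 7926 CPM in Light knockout libraries. The 6 members over 900 bases summed to 1708, 1524 and 1491 CPM in Light control and 2807, 2389.8 and 2459 CPM in Light knockout libraries. In Total RNA the sums of short members overlapped, at 6559, 6655 and 6449.9 CPM in control and 6634, 6153 and 5984 CPM in knockout libraries. By complex the Light sums were 742 ± 24.1 CPM (SD, n = 3) in control and 767 ± 59.0 in knockout cells for complex II, and 2069.7 ± 101 and 1769 ± 80.7 for complex III. They were 5172 ± 334 and 3712 ± 529 CPM for complex IV, and 7266 ± 41.4 and 6425 ± 480.5 CPM for complex V.

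**Figure D2:**
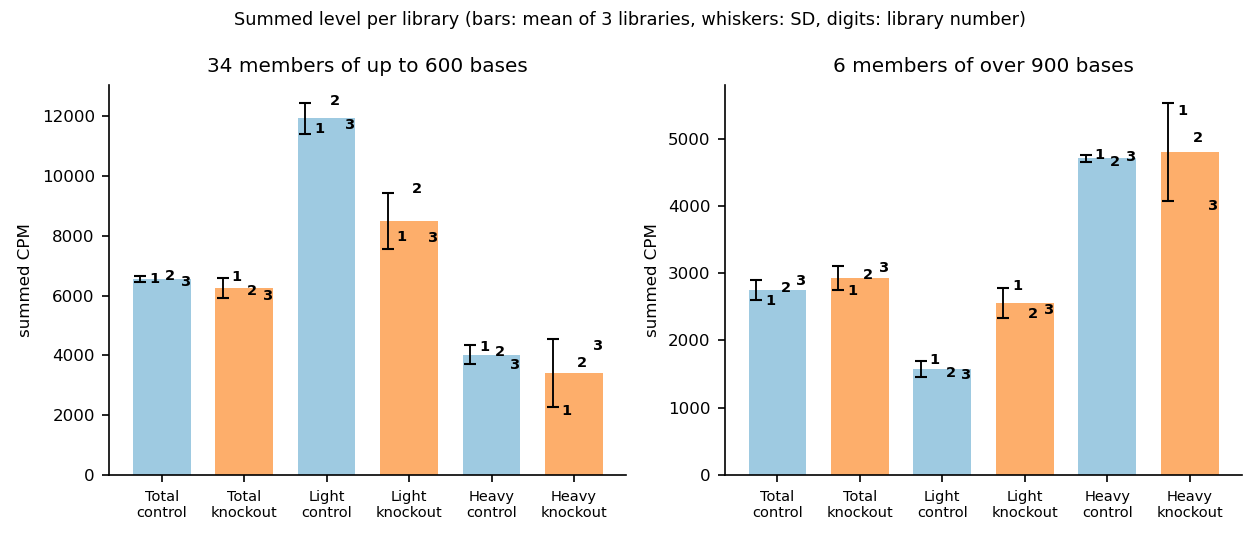
Summed CPM of the 34 members with coding lengths up to 600 bases and of the 6 members over 900 bases in each group, with bars for the mean, whiskers for the SD and digits for the library numbers. In Light RNA the short members sum to less and the long members to more in all 3 knockout libraries than in any control library, and Heavy knockout library 1 is the lowest of the Heavy libraries for the short members.

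Without the Heavy knockout library 1 the spread estimate fell and 24 members fell in Light RNA, where 15.2% of all tested genes did. Without Light knockout library 3 the count was 8, for which no share of all tested genes is given. CPM are shares of a library, and median-of-ratios scaling moved the median difference of all genes with at least 1 CPM by -0.20, from 0.14 to -0.06, in Light RNA and by -0.15, from 0.05 to -0.11, in Heavy RNA. Under that scaling the Light split was 6 members higher and 24 lower (18.3% and 21.2% of all tested genes), with medians of 0.61 over the 6 long members and -0.73 over the 28 short ones, and the Heavy split was 2 higher and 15 lower, beside 2547 and 3158 of all tested genes.

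In the Heavy fraction 3 members rose and 5 fell, where 18.5% of all tested genes rose and 10.4% fell (28.9% in all), and the median difference was -0.17 for the members and 0.02 for all tested genes. Sdha rose again, from 96.4, 109 and 121 CPM in control to 286, 189 and 156 CPM in knockout libraries (log2 0.90 ± 0.16, limma adjusted p = 0.00049). All knockout libraries were above the controls, with library 1 highest by far. Cox6a2 and Atp5sl were the other members that rose. Atp5sl stood at 7.31, 7.06 and 7.26 CPM in control and 7.94, 10.5 and 13.2 CPM in knockout libraries (log2 0.47, limma adjusted p = 0.019), a call lost under quantile normalization (adjusted p = 0.15) and median-of-ratios scaling (adjusted p = 0.10).

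The Heavy falls took in another subunit of complex II and the electron-carrying iron-sulfur protein of complex III. Sdhb stood at 242, 222 and 216 CPM in control and 143, 186 and 189.8 CPM in knockout libraries (log2 -0.40 ± 0.11, limma adjusted p = 0.012). Uqcrfs1, the Rieske iron-sulfur protein, stood at 249, 225 and 220.4 CPM in control and 144, 197 and 189 CPM in knockout libraries (log2 -0.40 ± 0.13, limma adjusted p = 0.024). Thus Sdha and Sdhb, whose proteins pair in complex II, differed in opposite directions in Heavy RNA.

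The other Heavy falls were in complex V. Atp5g3 stood at 727, 674 and 626 CPM in control and 257, 541 and 563 CPM in knockout libraries (log2 -0.66 ± 0.20, limma adjusted p = 0.024). Atp5o, a stalk subunit, stood at 466, 432 and 388 CPM in control and 168, 336 and 367 CPM in knockout libraries (log2 -0.64 ± 0.20, limma adjusted p = 0.027). Atp5d, the delta subunit of the central stalk, stood at 288, 283 and 238 CPM in control and 142, 220.0 and 231 CPM in knockout libraries (log2 -0.47, limma adjusted p = 0.046). In all of these genes knockout library 1 was the lowest and the groups did not overlap. Knockout libraries lay wholly above control libraries for 4 members and wholly below for 9, beside 24.1% and 13.8% of all tested genes.

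The Heavy counts rest on single libraries more than the Light ones do. Heavy knockout library 1 had a median difference from the control mean of -0.81 over the 28 short members, whereas libraries 2 and 3 had -0.02 and 0.19. The number of members that fell was 0 without Heavy control library 1, 1 without Heavy control library 2, 2 without Heavy knockout library 1, 8 without Heavy knockout library 2 and 15 without Heavy knockout library 3. The number that rose was 1 without Heavy control library 2 or Heavy knockout library 3. Apart from the fit without Heavy knockout library 1, shares of all tested genes are not given for these fits. Whether their counts are particular to the members cannot be told. Without Heavy knockout library 1, Atp5g3 (log2 -0.29, limma adjusted p = 0.021) and Sdhb (log2 -0.27, adjusted p = 0.038) still fell and Sdha (log2 0.66, adjusted p = 0.00043) still rose, where 17.1% of all tested genes rose and 8.43% fell. Uqcr10 (log2 0.50, adjusted p = 0.037) and Atp5l (log2 0.34, adjusted p = 0.027) then rose in limma, and the value of Atp5l with all libraries had the opposite sign. Atp5sl also rose (log2 0.64, limma adjusted p = 0.0011), and Cox6a2 did not pass the test (log2 0.47, limma adjusted p = 0.10).

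**Figure D3:**
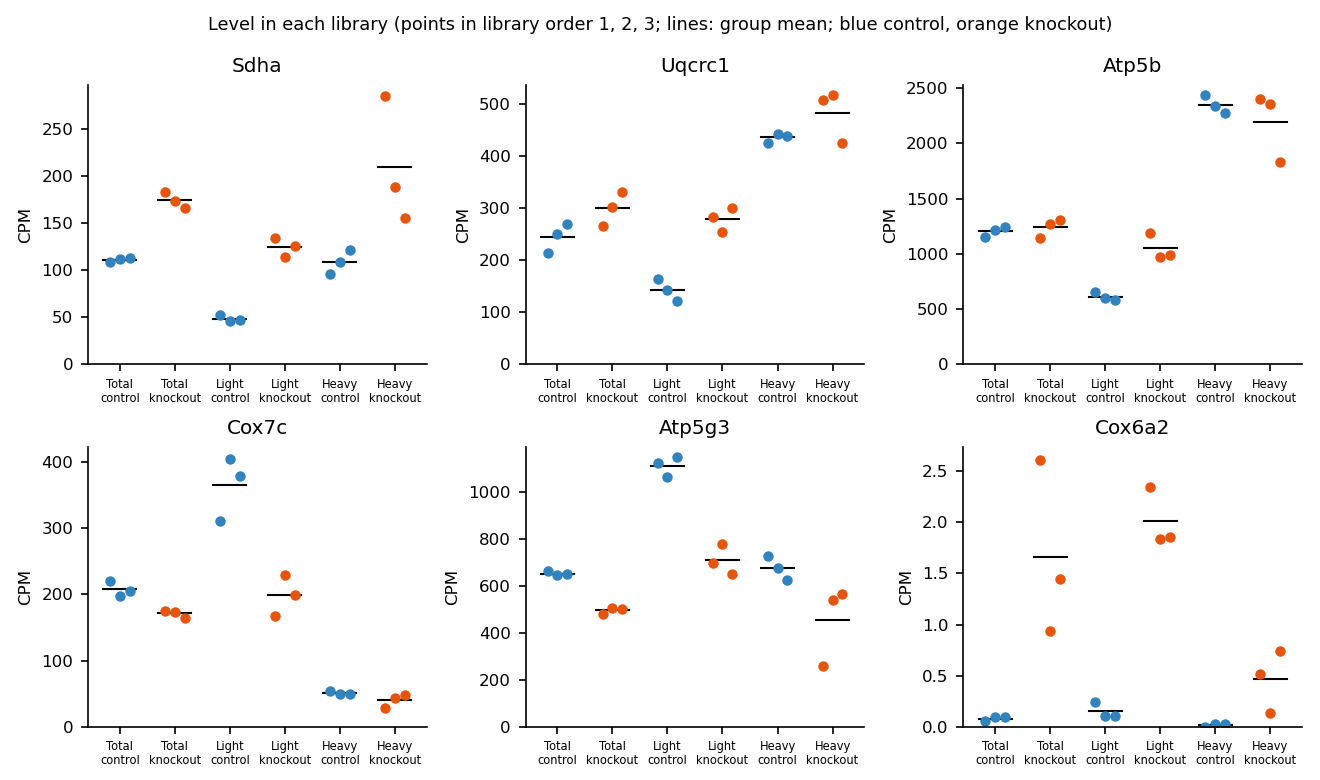
CPM of Sdha, Uqcrc1, Atp5b, Cox7c, Atp5g3 and Cox6a2 in each of the 18 libraries, grouped by fraction and genotype. Points stand in order of library number within each group, and lines mark the group mean. Sdha is higher in every knockout library of every fraction, and Atp5g3 is lowest in Heavy knockout library 1, at 257 CPM.

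Within control cells the Heavy to Light difference of the members went with the length of their reading frames, a description without a test. Of the 45 members 8 were higher in Heavy than in Light RNA and 28 lower, where 23.6% of all tested genes were higher and 27.1% lower (50.7% in all). As background, the length of a reading frame limits how many ribosomes a message can carry at once. By complex, 2 were higher and 1 lower in complex II, 3 and 5 in complex III, 0 and 11 in complex IV, and 3 and 11 in complex V.

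The members highest in Heavy RNA were the large catalytic and core subunits. Atp5b stood at 2438, 2339.6 and 2270.3 CPM in Heavy control against 653, 598 and 582 CPM in Light control libraries (log2 1.94 ± 0.12, limma adjusted p = 4.1e-09). Atp5a1 (log2 1.89), Uqcrc1 (1.61), Uqcrc2 (1.57) and Sdha (1.14) followed, and Uqcrfs1 (1.08), Atp5c1 (0.65) and Sdhb (0.52) were also higher in Heavy RNA. These 8 members have at least 825 coding bases. Cyc1, with 978 coding bases, stood at 413, 389 and 374 CPM in Heavy control and 412, 371 and 361 CPM in Light control libraries (log2 0.04, limma adjusted p = 0.88), so it was the long member that did not pass this test.

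The members lowest in Heavy RNA were the small subunits. Cox8a, a small subunit of the oxidase, stood at 71.5, 70.8 and 49.9 CPM in Heavy control against 514, 685 and 506 CPM in Light control libraries (log2 -3.13 ± 0.23, limma adjusted p = 1.2e-08). Uqcr11, with the 171-base frame printed above, stood at 27.0, 30.6 and 24.4 CPM in Heavy control against 207, 291 and 219.9 CPM in Light control libraries (log2 -3.07). Atp5e, with the 159-base frame, stood at 25.7, 28.4 and 22.8 CPM against 193, 267 and 207 CPM (log2 -3.06). Uqcr10 (log2 -3.03), Atp5k (-2.83), Cox7c (-2.81), Cox6a1 (-2.80) and Uqcrh (-2.63) were close behind. In each of the 3 genes given by library, the highest Heavy value was less than the lowest Light value by far.

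The c subunit genes differed among themselves although they encode the same mature protein. The Heavy minus Light log2 difference in control cells was -1.83 for Atp5g1, -0.84 for Atp5g2 and -0.72 for Atp5g3, with coding lengths of 411, 441 and 426 bases. In Heavy control libraries Atp5g1 stood at 152, 155 and 132 CPM, Atp5g2 at 398, 387 and 357 CPM, and Atp5g3 at 727, 674 and 626 CPM. The differences between the 3 genes were not tested. For Atp5g2, 100% of the 50-base words of its transcript also occur in another gene (Gm10231 or Gm10175), so its level is uncertain. The transcript used for this gene holds the reading frame alone, so untranslated sequence was not compared.

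Over the 41 members with at least 1 CPM, Spearman's rho between coding length and the Heavy minus Light difference was 0.962 in control cells and 0.967 in knockout cells, beside 0.399 and 0.481 over 11032 genes. These correlations are over genes measured in the same libraries and are descriptions without a test. The members span a narrower range of coding length than the 11032 genes, so the values are not over like ranges. Of the 28 members up to 600 bases, 0 were higher and 26 lower in Heavy control RNA, with a median of -2.05, beside 85.7% lower and a median of -1.45 over all 1485 genes of that length. Of the 6 members over 900 bases 5 were higher and 0 lower, with a median of 1.59, beside 44.0% higher and 20.9% lower and a median of 0.30 over all 8002 genes of that length.

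**Figure D4:**
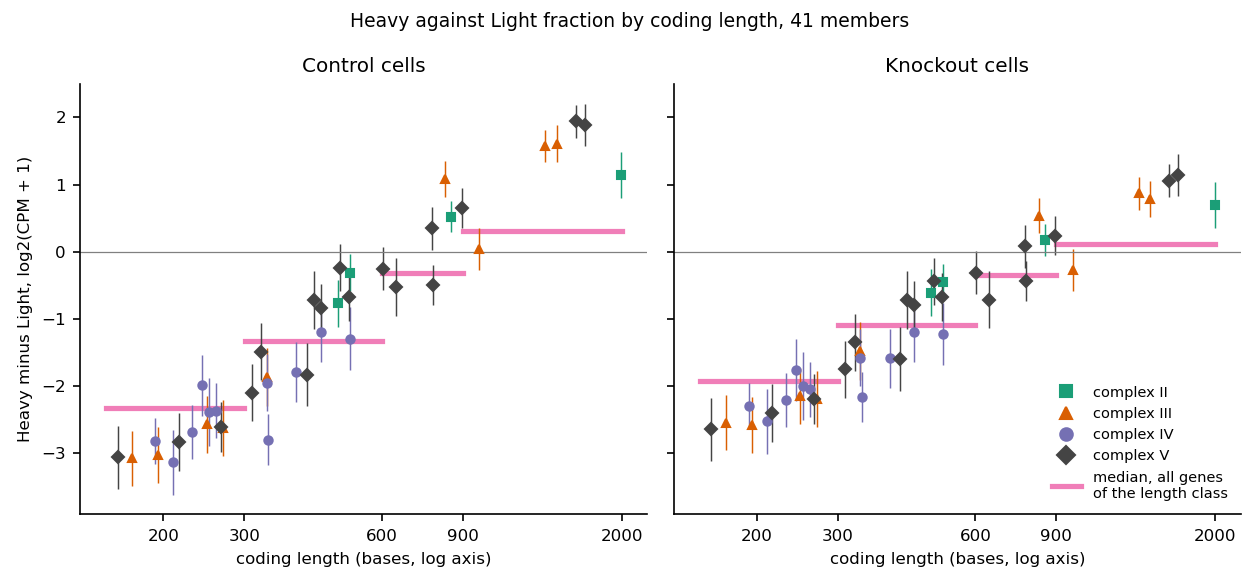
Heavy minus Light difference of mean log2(CPM + 1) against coding length in bases (log axis) for the 41 members with at least 1 CPM, in control cells and in knockout cells, with bars for the 95% confidence interval and lines for the median of all genes of each length class. The short members lie down to about -3 and the long ones up to about 2 in control cells, with a narrower range in knockout cells.

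In knockout cells the members spanned a smaller range. The Heavy against Light level was higher for 6 members and lower for 32, where 16.8% of all tested genes were higher and 26.8% lower (43.6% in all). Atp5a1 (log2 1.14), Atp5b (1.06), Uqcrc2 (0.87), Uqcrc1 (0.79), Sdha (0.70) and Uqcrfs1 (0.54) were higher in Heavy RNA. Atp5e (log2 -2.64), Uqcr10 (-2.58), Uqcr11 (-2.54) and Cox8a (-2.52) were lowest. All 28 members up to 600 bases were lower in Heavy RNA, with a median of -1.76, beside 85.6% lower and a median of -1.20 over all 1485 genes of that length.

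The change of the Heavy to Light difference between genotypes was tested as an interaction in the same limma fit. Of the 45 members 0 were higher and 3 lower, where 0.354% of all tested genes were higher and 2.52% lower (2.87% in all). Atp5b had the largest fall. It stood at 2398, 2358 and 1831 CPM in Heavy knockout libraries, a range that met that of Heavy control, while its Light level rose as given above. The difference of differences was -0.89 ± 0.16 (limma adjusted p = 0.020).

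The core subunits of complex III were the other members called. Uqcrc1 stood at 425, 443 and 438 CPM in Heavy control and 506, 517 and 425 CPM in Heavy knockout libraries, and its difference of differences was -0.82 ± 0.18 (limma adjusted p = 0.028). Uqcrc2 stood at 95.9, 92.6 and 100.3 CPM in Heavy control and 114, 104 and 81.2 CPM in Heavy knockout libraries, with -0.71 ± 0.16 (limma adjusted p = 0.031). Both overlapped between genotypes in Heavy RNA and were apart in Light RNA. Atp5a1 differed by -0.75 (limma adjusted p = 0.067) and Sdha by -0.44 (limma adjusted p = 0.39), short of the threshold. By class the median was -0.73 over the 6 long members, beside -0.13 over all genes of that length, and 0.36 over the 28 short ones, beside 0.26.

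These 3 calls were unstable to single libraries and to the scaling. The count of members lower was 0 without any one of the Heavy control libraries 1, 2 or 3 or the Light control libraries 2 or 3, and 1 without Heavy knockout library 3 or Light knockout library 1. It was 1 under quantile normalization and 0 under median-of-ratios scaling, where 0.131% of all tested genes were lower. Shares of all tested genes are not given for these fits without a single library or for quantile normalization. At an unadjusted p under 0.05 there were 2 members higher and 7 lower, beside 3.96% and 11.6% of all tested genes. Voom on the recovered reads called 0 higher and 3 lower, beside 0.12% and 1.79%.

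Without Heavy knockout library 1 the picture was larger in both directions. Then 15 members were higher, all of them with up to 600 coding bases, and 6 lower, where 4.04% of all tested genes were higher and 7.44% lower. Among those higher were Cox6a1 (log2 0.85, limma adjusted p = 0.018), Cox7a2 (0.82, adjusted p = 0.0049), Atp5e (0.77, adjusted p = 0.023) and Cox7c (0.74, adjusted p = 0.013). Among those lower were Atp5b (-0.95, limma adjusted p = 0.0044), Atp5a1 (-0.92, adjusted p = 0.0055), Uqcrc1 (-0.86), Uqcrc2 (-0.81) and Sdha (-0.69). The remaining one was Cox6a2 (-0.92, limma adjusted p = 0.038), whose reads are few in Heavy RNA. Leaving out the 3 knockout libraries numbered 1 together, an alternative chosen after seeing the data, gave 14 higher and 6 lower, beside 3.21% and 7.47% of all tested genes.

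**Figure D5:**
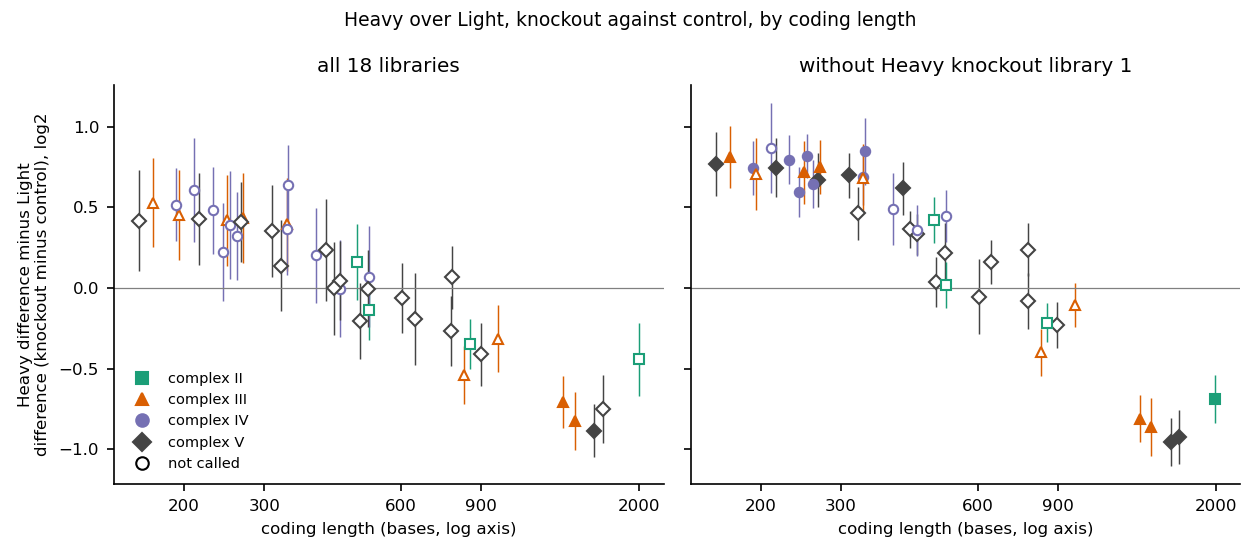
Difference of differences (Heavy minus Light, knockout minus control, log2) against coding length in bases (log axis), from all 18 libraries and without Heavy knockout library 1, with bars for the SE and filled points for a limma adjusted p under 0.05. With all libraries 3 long members are filled below 0. Without that library 15 short members are filled above 0, and Atp5a1, Atp5b, Uqcrc1, Uqcrc2 and Sdha are filled below it. Cox6a2 has a mean under 1 CPM and is not drawn.

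Against Total RNA no interaction passed the test. For Heavy over Total, limma called 0 members higher and 0 lower (0.0114% of all tested genes), with 0 and 1 at an unadjusted p under 0.05 (5.67% and 2.26%), and voom had 0 and 0 at either threshold. For Light over Total, limma called 0 and 0 (0.0% of all tested genes), with 5 higher and 3 lower at an unadjusted p under 0.05 (13.6% and 2.72%) against 5 and 7 in voom, whose adjusted count was 0. Without Heavy knockout library 1, 4 members were higher in Light over Total, Atp5a1 (log2 0.84), Atp5b (0.74), Sdha (0.70) and Uqcrc1 (0.68), and 8 were lower, where 7.02% of all tested genes were higher and 1.0% lower. Without Heavy knockout library 3, 3 members were higher, for which no share of all tested genes is given.

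Other genes of the pathway were counted from lists chosen with earlier results of these data known. Of 37 subunits of complex I, which feeds the same chain from NADH, 1 rose in Total RNA (Ndufv3, log2 0.46), 5 rose and 19 fell in Light and 0 rose and 6 fell in Heavy RNA. Over all tested genes 16.1% rose and 10.3% fell in Total, 26.8% and 12.7% in Light, and 18.5% and 10.4% in Heavy RNA, and the counts of the lists below are to be read beside the same shares. Of all genes up to 600 coding bases 43.9% fell in Light RNA. In Heavy over Light 0 were called higher and 4 lower (0.354% and 2.52% of all tested genes). Ndufa3, a small accessory subunit, fell most in Light (log2 -0.99) and Heavy RNA (log2 -0.65). In control cells 5 of the 37 were higher and 29 lower in Heavy than in Light RNA (23.6% and 27.1% of all tested genes).

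The enzymes of the citric acid cycle supply succinate and NADH to the chain. All 14 were higher in Heavy than in Light RNA in control cells and 12 in knockout cells, beside 23.6% and 16.8% of all tested genes. Of the long members of the complexes 5 of 6 were also higher in Heavy control RNA. In Light RNA 8 rose and 0 fell. In Heavy RNA 4 rose and 4 fell, and in Heavy over Light 0 rose and 6 fell, with Fh1, the fumarase, lowest (log2 -0.96, limma adjusted p = 0.026). In Total RNA 2 rose and 2 fell.

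Of 36 assembly factors and associated proteins of complexes II to V, 2 rose and 7 fell in Total, 3 rose and 17 fell in Light, and 1 rose and 8 fell in Heavy RNA. Surf1, needed to build complex IV, rose in all 3 (log2 0.56, 0.65 and 0.35 in Total, Light and Heavy). Cox18, which inserts an oxidase subunit into the inner membrane, fell in all 3 (log2 -1.28, -1.20 and -1.30, with limma adjusted p at most 6.6e-07). In Heavy over Light 0 rose and Taco1 alone fell (log2 -0.72, limma adjusted p = 0.030). The associated proteins in this list are Atpif1, Usmg5 and 2010107E04Rik of complex V, which are not assembly factors. Usmg5 (log2 -0.69) and 2010107E04Rik (log2 -0.73) are among those counted as fallen in Light RNA. Cycs, the cytochrome c that links complexes III and IV, fell in Light RNA (log2 -1.07, limma adjusted p = 0.0057) and in Heavy RNA (log2 -0.77, limma adjusted p = 0.047). Of 13 regulators of mitochondrial gene expression, 0 rose and 1 fell in Total, 2 rose and 1 fell in Light, and 1 rose and 3 fell in Heavy RNA. Polrmt, the mitochondrial RNA polymerase, rose most in Light (log2 0.78), and Gabpb1, a partner of an ETS factor of these promoters, fell in all 3.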

How the data were processed

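RNA of cytoplasm and of pooled gradient fractions was sequenced in 18 libraries (TruSeq v2, NextSeq, per the labels' protocols). The deposited values are log2(CPM + 1) per gene, made by the authors with STAR and edgeR on mm10 per the submitters' processing notes. The sources used here do not name the read counter, its annotation or the strand setting. With the log undone, 100% of values were whole reads (tolerance 0.1).

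Genes above 0 in at least 3 libraries were fitted together, with 6 group means, a trend and robust variances, in limma 3.58.1 (R 4.3.3). Calls are at a Benjamini-Hochberg adjusted p under 0.05 over all 17515 genes. Each SE pools the spread of all groups. Summaries were made in Python 3.11.15 (scipy 1.17.1, pandas 2.3.3, numpy 2.4.6) and figures with matplotlib 3.10.9. The test was checked on simulated data.

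The members, the pathway lists and the rule for named genes (all Sdh genes, Cyc1, the 3 members of highest level a complex, paralog sets, and up to 3 largest called rises and falls a complex) were chosen with earlier results of these data known. The length classes and the 1 CPM split were chosen after the values had been seen. Coding lengths and sequences are from GENCODE vM21 (GRCm38). Alternatives were 2 other scalings, voom on the recovered reads, 2 filters, a pseudocount of 0.1 CPM, removal of the coding-length trend, replicate blocks and leaving out each library.

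Heavy and Light libraries of the same number within a genotype had deviations with correlations of 0.324 to 0.412 (control) and of 0.276 to 0.602 (knockout). Against Total control libraries 1 to 3, those of Light were -0.647, 0.355 and -0.624 and those of Heavy -0.448, 0.165 and -0.214. In knockout cells they were 0.434 to 0.642 (Light) and 0.061 to 0.510 (Heavy). Whether libraries of the same number share a lysate was not tested. The numbers were not taken to pair control with knockout libraries, where the Heavy correlations were -0.453 to -0.233. A block within genotype called 4 members lower in Heavy over Light, adding Cox6a2 (limma adjusted p = 0.031).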

Additional observations from a re-analysis of the deposited data

Results flagged for a closer look

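The difference between Heavy and Light RNA in the effect of the knockout, tested as an interaction in limma, passed the threshold for 3 members. It was -0.89 for Atp5b, -0.82 for Uqcrc1 and -0.71 for Uqcrc2 (log2), the knockout effect being higher in Light than in Heavy RNA for each gene. In Light RNA all 3 knockout libraries lay above all 3 control libraries for these genes. Their calls depended on single libraries, as given with the results.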

How the results depend on the processing

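With 3 libraries a group, and CPM being shares of a library, small changes and absolute amounts cannot be resolved, and members that share sequence or exons with other genes are uncertain. Of 47 members, 9 share over 20% of their 50-base words with another gene, the highest being Atp5g2 (100%, reading frame only), Atp5l (68.5%), Cox7c (53.0%) and Atp5h (50.5%). Over all tested members and settings, 196 values gained a call, 162 lost it and 26 changed sign with a call in at least 1 of the fits compared. The other 9497 neither gained, lost nor reversed a call, and sign changes of values called in neither fit are among them. The cause of these changes was not tested.

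Under median-of-ratios scaling, members lower numbered 24 in Light, 15 in Heavy and 0 in Heavy over Light, and medians were -0.59 (Light), -0.43 (Light over Total) and -0.76 (Heavy against Light, control). Quantile normalization left 1 lower in Heavy over Light. A filter of at least 1 CPM, which removes Cox6a2, left 1 higher in Total and gave 2 higher in Light over Total. The control median of Heavy against Light was -1.30 with this filter, -1.30 with voom and -1.05 with a pseudocount of 0.1.

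Removing the coding-length trend takes out much of the length difference by construction. It gave 1 lower in Total (19.1% of all genes), 3 lower in Light (24.5%, median 0.017), 11 lower in Heavy (23.0%), 0 lower in Heavy over Light and a Light over Total median of 0.029. Heavy against Light then had 18 higher and 11 lower in control cells (33.8% and 31.9% of all genes, median 0.062) and 14 higher and 13 lower in knockout cells (27.5% and 28.0%, median -0.062). Signs turned for Uqcr10 in Light (0.37). In Heavy against Light of control cells they turned for Atp5j (0.44), Cox5a (0.17), Atp5g3 (0.64), Atp5o (0.13), Atp5d (0.43), Sdhc (0.78), Cox7b (0.33), Sdhd (0.33), Uqcrb (0.062), Atp5g2 (0.52), Atp5s (0.49) and Atp5h (0.86). In knockout cells they turned for Atp5j (0.20), Atp5g3 (0.32), Atp5d (0.27), Sdhc (0.49), Cox7b (0.084), Sdhd (0.33), Uqcrb (0.082), Atp5g2 (0.24) and Atp5h (0.50).

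Without the 3 knockout libraries numbered 1 there were 3 lower in Total (12.9% of all genes), 20 lower in Light (13.9%), 7 higher and 3 lower in Heavy (20.2% and 10.3%), 14 higher and 6 lower in Heavy over Light (3.21% and 7.47%), and 3 higher in Light over Total (4.26%). Signs turned in Heavy for Cox6c (0.30), Cox7a2 (0.23) and Atp5l (0.34). Without Heavy knockout library 1 alone all 3 turned with the same values, and Atp5l alone was then called. Leaving out single Heavy libraries, Atp5l ranged from -0.21 to 0.34.

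Leaving out each library in turn gave 2 to 3 higher and 0 to 1 lower in Total (median -0.02 to 0.02), 6 to 7 higher and 8 to 24 lower in Light (median -0.43 to -0.29), and 1 to 4 higher and 0 to 15 lower in Heavy (median -0.34 to 0.00). It gave 0 to 15 higher and 0 to 6 lower in Heavy over Light (median -0.05 to 0.36), 0 higher and 0 lower in Heavy over Total (median -0.31 to 0.07), and 0 to 4 higher and 0 to 8 lower in Light over Total (median -0.37 to -0.20). Heavy against Light gave 8 to 9 higher and 27 to 29 lower in control cells (median -0.88 to -0.80) and 6 to 8 higher and 29 to 32 lower in knockout cells (median -1.20 to -0.83). Shares of all tested genes are given only for the fit without Heavy knockout library 1. The ranges therefore do not tell whether the members moved more than all tested genes.

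With the replicate number as a block over all libraries, 15 members fell in Light RNA, adding Cox6c (limma adjusted p = 0.046) and Uqcr11 (adjusted p = 0.048). Heavy against Light then had 27 lower in control cells, without Atp5o, and 31 lower in knockout cells. A block within genotype gave 31 lower in knockout cells too, without Atp5h (limma adjusted p = 0.059), and other counts did not change beyond the Cox6a2 call in Heavy over Light. Knockout and control libraries of the same number had correlated deviations in 2 of 3 Total pairs (0.256 and 0.558, against -0.161 for number 2), but not in Light (-0.068 to 0.083) or Heavy RNA. Not every pair exceeded 0.1, so they are taken to share only a number.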

Other observations

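The promoters of the members were searched for motifs of factors known to bind genes of the respiratory chain. Of the 47 members 33 had a promoter in the RefSeq table (GRCm38.p6), from 250 bases before to 50 bases after the start, and both strands were searched. The palindromic NRF1 motif occurred in 10 of them (30.3%), beside 12.1% of the 9220 promoters of tested genes with at least 1 CPM. The ETS motif CCGGAAG occurred in 12 (36.4%), beside 21.3%, and the YY1 motif AAGATGG in 5 (15.2%), beside 8.58%. Over all 27025 promoters in the table the shares were 5.19%, 9.93% and 7.28%. A match is a run of letters and was not tested as a binding site.

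Atp5s, named among the ATP synthase genes by its old symbol only, was called in none of the 3 knockout comparisons within a fraction in limma (log2 0.25 in Total, 0.16 in Light and 0.10 in Heavy RNA). Atp5s stood at 9.73, 8.42 and 6.90 CPM in Total control and 12.0, 9.59 and 8.66 CPM in Total knockout libraries. In Heavy RNA it stood at 5.15, 4.76 and 5.25 CPM in control and 5.42, 5.33 and 5.70 CPM in knockout libraries.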
